A study of Mus musculus with 24 samples.

Results

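The 9 genes described here encode precursors of opioid, tachykinin and stress neuropeptides, Penk, Pdyn, Tac1, Tac2, Crh, Adcyap1, Scg2, Vgf and Cartpt. They were chosen by symbol from the 49568 gene symbols counted in each library, and all 9 passed the filter on low counts among the 20187 genes tested. RNA came from single hippocampi of Aged mice of 21 to 23 months, 1 mouse to a library and 6 libraries to a group. Mice in standard housing (SH) or in an enriched environment (EE), which they entered at 18 months, were either WT, giving the groups WTSH and WTEE, or MSK1 KD, giving KDSH and KDEE. MSK1 is a kinase that phosphorylates the transcription factor CREB, and MSK1 KD mice carry a point mutation in their own MSK1 gene that abolishes its kinase activity in every cell, on a C57-Bl/6J background. The mice were male and experimentally naïve, and the WT and MSK1 KD lines were bred apart, so line and genotype cannot be told apart. The study set aside KDSH sample 6 and WTSH samples 4 and 7 for ribosomal RNA or poor correlation within the group, which left 4, 6, 5 and 6 libraries, and values below are over these 21 unless stated.

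A neuropeptide is made as a long precursor protein that is cut and packed into dense core vesicles, from which the finished peptide is released when a neuron fires at length. In the hippocampus, enkephalins from Penk and dynorphins from Pdyn are found in the mossy fibres of dentate granule cells, where dynorphin damps transmitter release, while tachykinins and corticotropin releasing hormone are made mainly by interneurons. Several of these genes, Penk and Pdyn among them, are known targets of CREB, so they are genes at which a loss of MSK1 activity or a change of housing could be read.

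The kept libraries held 27410239 to 71907130 read pairs counted on genes. Rps6ka5, the gene of MSK1, lay between 21.1 and 25.2 CPM (counts scaled to a common library size) in 20 of them, and the point mutation leaves its mRNA in place, so its level does not check the genotype. The exception was WTEE sample 10, at 13.8 CPM. In that library the median gene with less than 2000 bases of exon sat 0.57 above the rest of its group on the log2 scale, and the median gene with 5000 bases or more sat 0.28 below. Of the 9 precursors, 4 (Penk, Tac2, Crh and Cartpt) have less than 2000 bases of exon and 0 have 5000 or more. The difference between these 2 classes of length was 0.85 in WTEE sample 10 and between -0.26 and 0.21 in the other 20 libraries. Several values that include this library are therefore also given without it, and its part in each result was not tested beyond that. Markers of hippocampal neurons were present in every library, with summed levels of 386 to 617 CPM for 8 dentate granule cell genes and 571 to 779 CPM for 4 CA1 pyramidal cell genes. In bulk tissue, fewer cells of a type cannot be told apart from less RNA in each cell.

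The 9 precursors spanned a wide range of levels. Per kilobase of exon, with all annotated exons of a gene merged, Vgf stood highest at 76.7 ± 13.8 CPM per kb (SD, n = 21), and Scg2 followed at 68.3 ± 5.05. Vgf and Scg2 encode granin-like proteins of dense core vesicles that are also cut into peptides, and Vgf exceeded Scg2 in 13 of 21 libraries, so these neighbours were not separated. Penk had 14.97 ± 2.77 and Pdyn 4.54 ± 0.656 CPM per kb, and Penk lay below Scg2 and above Pdyn in all 21 libraries without overlap of their ranges. Tac2 (3.21 ± 0.719) and Tac1 (2.63 ± 0.483) came next, with Tac2 higher in 18 of 21 libraries and overlapping ranges. Before division by length Tac1 was the higher, at 8.95 CPM against 4.43 CPM for Tac2. Their order thus rests on the merged exon lengths, 3399 and 1378 bases, and which transcripts were made was not tested. Adcyap1, Crh and Cartpt were the lowest per kilobase, at 1.60, 1.59 and 1.54 CPM per kb, and did not differ beyond their spread. Before division Adcyap1, at 6.05 CPM, lay above Tac2.

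**Figure D1:**
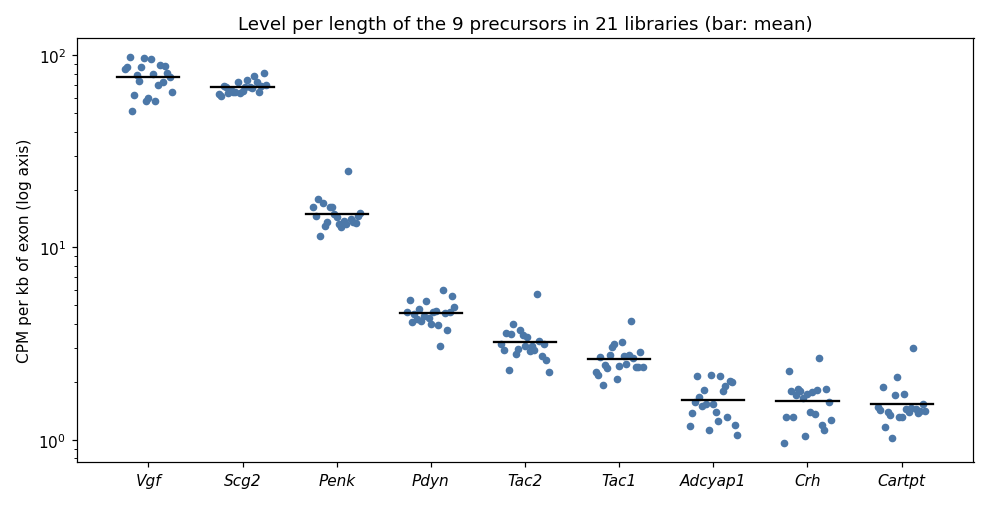
Level of each precursor in CPM per kilobase of exon on a log axis, 1 point for each of the 21 kept libraries and a bar at the mean. Vgf and Scg2 overlap near 70, Penk stands alone near 15, and Adcyap1, Crh and Cartpt share the lowest band, near 1.6.

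The 9 genes lie on 9 chromosomes of GRCm38 and all are protein coding in GENCODE M21. Penk is at chr4:4133531-4138819, Pdyn at chr2:129686565-129699844, Tac1 at chr6:7554879-7565834, Tac2 at chr10:127724478-127731768 and Crh at chr3:19693401-19695396. Adcyap1 is at chr17:93199017-93206537, Scg2 at chr1:79434669-79440120, Vgf at chr5:137026392-137033351 and Cartpt at chr13:99898489-99901091. Penk shares 233 exon bases with the antisense transcript A830012C17Rik, and reads were counted without regard to strand, so reads of that stretch cannot be assigned to one or the other.

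CREB binds the palindrome TGACGTCA (the full CRE) and, more weakly, the shorter site TGACG, read as CGTCA on the other strand. The 250 bases before the RefSeq start (GRCm38.p6) were searched on both strands in the 6 members with an entry in the promoter table used here, Pdyn, Tac1, Tac2, Adcyap1, Scg2 and Cartpt. The full CRE occurred in Scg2 and Cartpt, against 508 of 32851 windows of all genes (1.55%). Shorter sites outside a full CRE occurred in Tac1 and Adcyap1, and 17.8% of all windows hold one. The 2 windows of Adcyap1 share their site. The windows of Pdyn and Tac2 held neither, which says only that these letters are not in that stretch. The matches are shown with 10 bases on each side, 5′ to 3′ on the strand of the gene and with the motif in capitals, because the study asks about a kinase of CREB.
Scg2 at chr1:79440077-79440104, minus strand, motif starting 68 bases before the start: gctgagccggTGACGTCAgcgtggaatg
Cartpt at chr13:99900778-99900805, minus strand, 112 bases before the start: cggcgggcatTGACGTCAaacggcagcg
Tac1 at chr6:7554854-7554878, plus strand, 197 bases before the start: cctaaaattgCGTCAtttcgaacac
Tac1 at chr6:7555008-7555032, plus strand, 43 bases before the start: tctacaggctCGTCAcgcctgagat
Adcyap1 at chr17:93198916-93198940, plus strand, 91 bases before the start: actaggatgcTGACGtcttttactg
GENCODE M21 places an earlier start in 3 of these genes, so the Scg2 and Cartpt motifs and the second of Tac1 lie within its first exons. A match of letters is a description and not a binding site.

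The first question was whether enrichment changed these precursors in WT mice. Penk, the enkephalin precursor, had 20.9, 21.7, 21.8 and 22.5 CPM in the 4 WTSH libraries. The 6 WTEE libraries had a lowest value of 21.9, a median of 23.4 and a highest of 40.7 CPM. The WTSH mice were thus closely grouped, 4 of 6 WTEE mice lay above all of them, and the highest was WTEE sample 10. The fitted difference, WTEE minus WTSH, was 0.26 ± 0.147 on the log2 scale (SE, 95% interval -0.044 to 0.57, edgeR adjusted p = 0.651). Without WTEE sample 10 it was 0.091, and without WTEE sample 16 it was 0.31. Pdyn, the dynorphin precursor, had 8.84, 11.4, 13.3 and 13.6 CPM in WTSH, and a lowest, median and highest value of 10.8, 13.7 and 17.3 CPM in WTEE. The groups overlapped, with 3 of 6 WTEE mice above every WTSH mouse. The fitted difference was 0.26 ± 0.128 (SE, 95% interval -0.0037 to 0.53, edgeR adjusted p = 0.651). It was 0.20 without WTEE sample 10 and 0.34 without WTSH sample 5. Without WTSH sample 23, the mouse with the lowest Pdyn of its group, it was 0.15. For single genes, exact two-sided permutation tests gave p = 0.186 for Penk and p = 0.152 for Pdyn.

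The other 7 precursors differed by between -0.055 (Adcyap1) and 0.17 (Cartpt) between WTEE and WTSH. A gene was called where edgeR's adjusted p was under 0.05 and the log2 fold change exceeded 0.38 in size, which held for 0 of the 9 and for 0% of all genes tested. At an unadjusted p under 0.05 the count was 0 of 9, beside 6.55% of all genes, and DESeq2 also called 0 of 9, beside 0.00529% of all genes. No member had groups without overlap, as 0.986% of all genes did. The 95% intervals of Tac1 and Scg2 lay within ±0.38, while those of the other 7 reached beyond it, so changes of that size were not excluded for them.

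**Figure D2:**
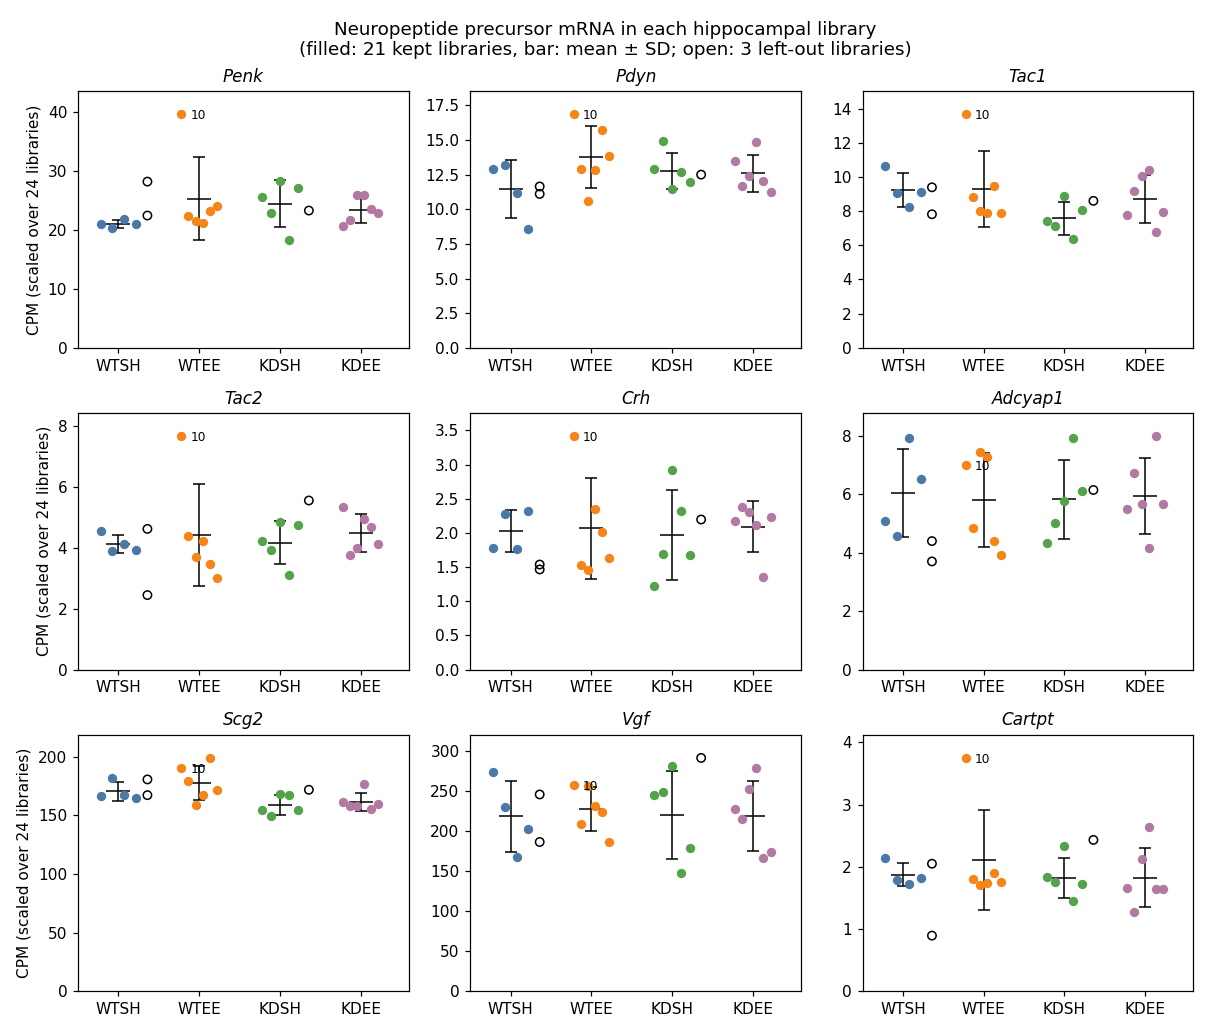
Level of each precursor (CPM, here scaled over all 24 libraries) in every library by group, with the 21 kept libraries filled, the mean ± SD of the kept libraries as a bar and the 3 left-out libraries open. The groups overlap in all 9 panels, and WTEE sample 10, marked 10, is the highest kept library in 6 of them.

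The same change of housing was compared in MSK1 KD mice. Penk had 18.8, 23.7, 26.4, 28.0 and 29.3 CPM in the 5 KDSH libraries, and 21.2, 23.9 and 26.7 CPM as the lowest, median and highest of KDEE. The KDSH range enclosed every KDEE value, and the difference, KDEE minus KDSH, was -0.067 ± 0.137 (SE). Pdyn had 11.8, 12.3, 12.98, 13.3 and 15.4 CPM in KDSH and 11.5, 12.5 and 15.3 CPM in KDEE, with a difference of -0.023 ± 0.120. For both opioid precursors the 95% interval lay within ±0.38. The largest difference among the 9 was that of Tac1, 0.20 ± 0.141 (SE, 95% interval -0.098 to 0.49, edgeR adjusted p = 0.557). Of the 9 precursors, 0 were called by edgeR (0% of all genes), 0 had an unadjusted p under 0.05 (11.6% of all genes), 0 had groups without overlap (1.84% of all genes) and 0 were called by DESeq2 (0.0866% of all genes).

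Whether housing acted differently in the 2 genotypes was tested as an interaction, the WT difference minus the MSK1 KD difference. It was 0.33 ± 0.200 for Penk (SE, 95% interval -0.088 to 0.74) and 0.29 ± 0.175 for Pdyn (95% interval -0.079 to 0.65), with an edgeR adjusted p = 0.9999 for each. Neither was separated from 0, and both moved in either direction when 1 library was left out. The interaction of Penk was 0.15 without WTEE sample 10 and 0.42 without KDSH sample 18. That of Pdyn was 0.22 without WTEE sample 10, 0.16 without WTSH sample 23 and 0.35 without WTSH sample 5. Of the 9, 0 were called (0% of all genes), 0 had an unadjusted p under 0.05 (3.26% of all genes), and DESeq2 called 0 (0.0762% of all genes). Pooled over genotypes, enriched minus standard ranged from -0.017 (Adcyap1) to 0.12 (Pdyn), with 0 of 9 called beside 0.00495% of all genes, 0 of 9 at an unadjusted p under 0.05 beside 18.9%, and 0 called by DESeq2 beside 0.233%. Without WTEE sample 10 these pooled differences ranged from -0.050 (Crh) to 0.092 (Pdyn), and that of Penk went from 0.097 to 0.015.

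**Figure D3:**
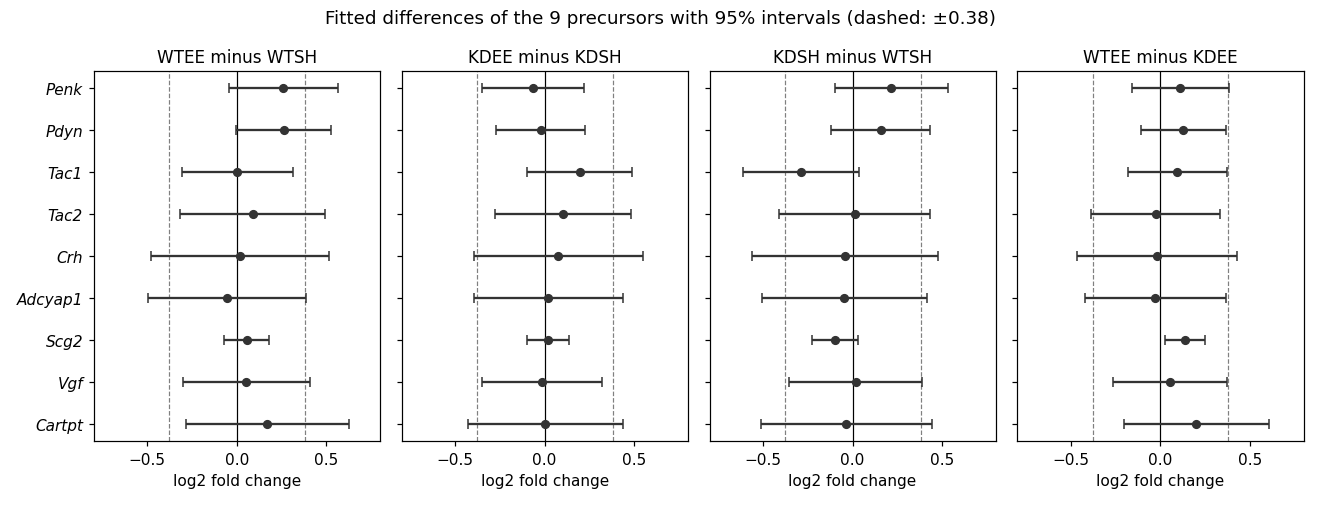
Fitted log2 fold change of each precursor in the 4 comparisons between 2 groups, with 95% intervals from edgeR and dashed lines at ±0.38. All intervals cross 0 except that of Scg2 for WTEE minus KDEE, which runs from 0.023 to 0.25.

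Genotype was compared next. Tac1, which encodes substance P and neurokinin A, had 8.45, 9.28, 9.42 and 10.95 CPM in WTSH and 6.52, 7.36, 7.68, 8.28 and 9.17 CPM in KDSH. Thus 4 of 5 KDSH mice lay below every WTSH mouse and 1 overlapped them. The fitted difference, KDSH minus WTSH, was -0.29 ± 0.155 (SE, 95% interval -0.61 to 0.035, edgeR adjusted p = 0.99995), and the exact two-sided permutation test for Tac1 alone gave p = 0.0317, where 0.00794 is the smallest value 4 against 5 mice allow. This exact p stood above 0.05 when any 1 of 6 of the 9 libraries was left out. It was 1 of 36 such single tests, of which only it and that of Scg2 for WTEE minus KDEE fell under 0.05. In enriched mice the Tac1 level was also lower in MSK1 KD mice on average, with a difference of 0.095 ± 0.134 (SE, 95% interval -0.18 to 0.37) for WTEE minus KDEE, which turned to -0.048 without WTEE sample 10. The interaction of Tac1 was -0.19 ± 0.205 (unadjusted p = 0.357), so the genotype difference was not shown to depend on housing. Over both housings Tac1 differed by -0.19 ± 0.102 for MSK1 KD minus WT (unadjusted p = 0.0756, edgeR adjusted p = 0.9996), and by -0.12 without WTEE sample 10.

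Scg2, secretogranin II, is the precursor of secretoneurin. It had 170.1, 171.8, 172.1 and 187 CPM in WTSH and 155, 159.0, 159.7, 171.4 and 174 CPM in KDSH. Its lowest, median and highest values were 162, 179 and 204 CPM in WTEE and 160.3, 163 and 182 CPM in KDEE. The WT groups were the higher under both housings and overlapped their MSK1 KD counterparts. Over both housings the difference, MSK1 KD minus WT, was -0.12 ± 0.042 (SE, 95% interval -0.20 to -0.031, unadjusted p = 0.0101, edgeR adjusted p = 0.9996). For WTEE minus KDEE it was 0.14 ± 0.054 (unadjusted p = 0.0204, edgeR adjusted p = 0.753, exact two-sided permutation p = 0.0411), and without WTEE sample 10 it was 0.11. This exact p also stood above 0.05 when any 1 of 8 of the 12 libraries was left out. Scg2 was thus 1 of 9 members with an unadjusted p under 0.05 in each of these comparisons, against 1.9% and 4.99% of all genes, and it did not pass the adjustment over all genes. Its intervals were the narrowest of the 9 and lay within ±0.38 in all 7 comparisons.

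For the remaining members, KDSH minus WTSH ranged from -0.046 (Adcyap1) to 0.22 (Penk), and WTEE minus KDEE from -0.030 (Adcyap1) to 0.20 (Cartpt). In KDSH minus WTSH 0 of 9 were called (0% of all genes), 0 of 9 had an unadjusted p under 0.05 (1% of all genes) and 0 had groups without overlap (0.644% of all genes). In WTEE minus KDEE 0 of 9 were called (0% of all genes) and 0 had groups without overlap (0.624% of all genes). In MSK1 KD minus WT over both housings 0 of 9 were called (0% of all genes). DESeq2 called 0 of 9 in each of the 3, beside 0%, 0.438% and 0% of all genes. The WTSH mice are shared between the first housing and the first genotype comparison, so the low Penk values of that group enter both.

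Crh, Adcyap1, Tac2 and Cartpt are given by their ranges. Crh, which encodes the releasing hormone that starts the hormonal stress response, ran from 1.27 to 3.51 CPM on 53 to 175 counts, with group means of 2.03 to 2.15 CPM. Adcyap1, the precursor of PACAP, ran from 4.01 to 8.22 CPM, with group means between 5.96 and 6.20. Its values differed about as much within each group as over all 21 libraries. Tac2, the precursor of neurokinin B, ran from 3.09 to 7.86 CPM, and Cartpt, which encodes the CART peptides, from 1.30 to 3.85 CPM on 47 to 192 counts. In the latter 2 the highest value was again WTEE sample 10, and without it the highest WTEE values were 4.48 and 1.96 CPM.

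Members differed in how far mice of 1 group were spread. Vgf, whose product is a growth-factor-inducible peptide precursor, had a within-group SD of 0.29 on the log2 scale, above that of 96.1% of the 1001 genes nearest in level. It had 172, 209, 236 and 283 CPM in WTSH, 152, 185, 253, 258 and 291 CPM in KDSH, and 191 to 264 and 172 to 287 CPM in WTEE and KDEE, so that each group covered much of the whole range. Adcyap1 and Penk had larger SDs than 86.2% and 85.8% of genes of like level. The SD of Penk includes WTEE sample 10, which lay 0.68 above the mean of its group on the log2 scale. That was the largest Penk deviation of the 21 libraries, followed in size by -0.41 in KDSH sample 18. The other WTEE libraries had 21.9 to 24.7 CPM of Penk. The rank of Penk without WTEE sample 10 was not tested, so its spread cannot be ascribed to the mice in general. Scg2 was the steadiest, with an SD of 0.087 that exceeded those of only 20.3% of such genes.

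WTEE sample 10 was the highest of the 21 libraries for Penk, Pdyn, Tac1, Tac2, Crh and Cartpt. Against the mean of the other 5 WTEE libraries it was 2.10-fold for Cartpt, 2.04-fold for Tac2, 1.90-fold for Crh, 1.76-fold for Penk and 1.62-fold for Tac1, but 1.09-fold for Scg2 and 1.16-fold for Vgf. Other libraries also stood to one side for several members. KDSH sample 18 was the lowest of 21 for Penk, Tac1 and Vgf, and KDSH sample 8 lay above the mean of its group for 8 of 9 members, as KDEE sample 15 did.

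**Figure D4:**
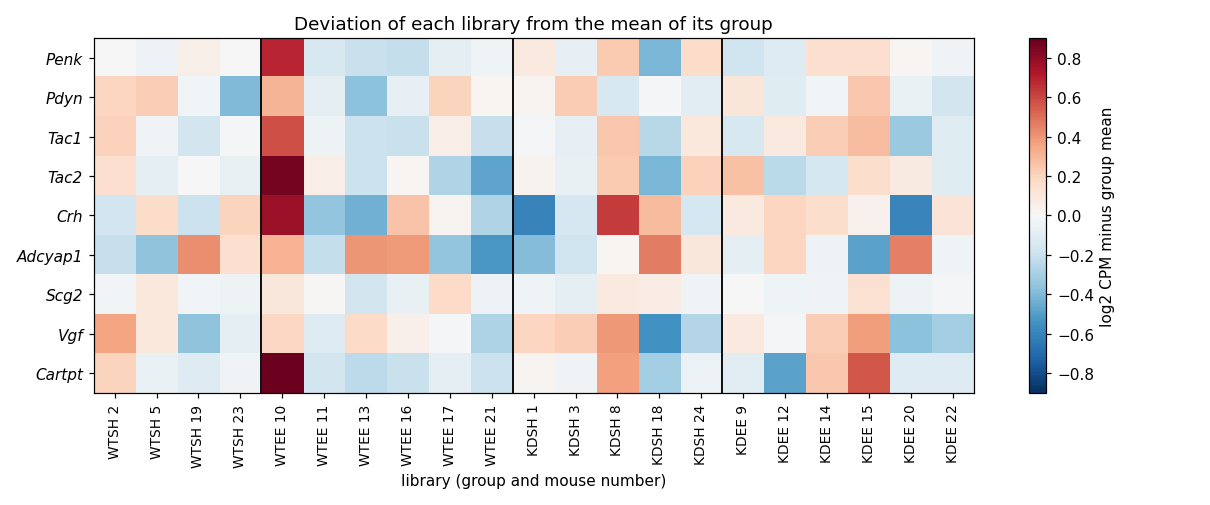
Deviation of each kept library from the mean of its group in log2 CPM, for the 9 precursors (rows) and 21 libraries (columns, in order of group and mouse number), red above and blue below the mean. The column of WTEE sample 10 is red in all 9 rows, and Adcyap1 is blue where Vgf is red in several columns, such as KDEE sample 15.

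Because mice of 1 group differed in several members at once, their deviations from the group means were correlated across the 21 libraries, with 100000 permutations within the groups and adjustment over the 36 pairs. Of these, 6 pairs had an adjusted p under 0.05. Penk and Cartpt gave r = 0.85 (rho = 0.80, permutation p = 0.00023 and 0.00069, adjusted p = 0.00828 for r), Tac1 and Cartpt r = 0.82 (rho = 0.77) and Penk and Tac1 r = 0.79 (rho = 0.65). Tac2 and Cartpt gave r = 0.75 (rho = 0.59), Tac1 and Vgf r = 0.63 (rho = 0.68) and Vgf and Cartpt r = 0.58 (rho = 0.69). Without the 2 libraries farthest from the median of the first member, r ran from 0.54 for Tac2 and Cartpt to 0.72 for Penk and Cartpt. Without WTEE sample 10, 0 of 36 pairs had an adjusted p under 0.05. The coefficients were then 0.70 for Tac1 and Vgf, 0.68 for Penk and Cartpt and 0.66 for Vgf and Cartpt, each with an adjusted permutation p = 0.0593. They were 0.67 for Tac1 and Cartpt (adjusted permutation p = 0.0714), 0.59 for Penk and Tac1 (0.0905) and 0.47 for Tac2 and Cartpt (0.176). All 6 calls were thus lost without that library, and 4 of the 6 coefficients were lower without it. Those of Tac1 and Vgf and of Vgf and Cartpt were higher, and an adjusted p also moves with the other pairs of the 36. On leaving out each of the 21 libraries once, Tac2 and Cartpt lost the call 5 times and Vgf and Cartpt 3 times. The other pairs of the 6 lost it only without WTEE sample 10. Penk and Pdyn, the pair of opioid precursors, were not among the 6.

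The members were also set against marker lists of 9 cell types or neighbouring regions, as 81 relations. Vgf followed the 4 CA1 pyramidal cell genes Fibcd1, Wfs1, Pou3f1 and Mpped1 (r = 0.80, rho = 0.77, permutation p = 0.00031 and 0.00050, adjusted p = 0.0126 for r). Adcyap1 followed the 5 genes of the neocortex list (r = 0.81, rho = 0.81, permutation p = 0.00011 and 0.00031, adjusted p = 0.00891 for r). Without the 2 libraries farthest in the member these were 0.73 and 0.78, and without WTEE sample 10 they were 0.90 and 0.82. The relation of Vgf lost its call without KDSH sample 18 (r = 0.75, adjusted permutation p = 0.0539) or WTSH sample 19 (r = 0.77, adjusted permutation p = 0.0518). That of Adcyap1 kept it on leaving out any 1 of the 21 libraries, with r from 0.77 to 0.85. Among the neocortex genes, Adcyap1 had r = 0.75 with Rspo1 and 0.68 with Tshz2, but 0.41 with Foxp2, 0.22 with Rorb and 0.074 with Scnn1a. So this relation is strongest with part of the list, and the summed level of the 5 genes was 34.2 to 47.0 CPM over the 21 libraries. Vgf had r between 0.51 (Fibcd1) and 0.64 (Mpped1) with the single CA1 genes. The other 79 relations had an adjusted p of 0.05 or more. Adcyap1 with the CA1 genes had r = -0.63 (permutation p = 0.00374, adjusted p = 0.101). Its adjusted permutation p was 0.0219 without WTEE sample 13 and 0.0146 without WTEE sample 21. Penk with the interneuron genes had r = -0.63 (permutation p = 0.0162, adjusted p = 0.262), and -0.31 without WTEE sample 10 and KDSH sample 18. Also among the 79 were Penk and Pdyn with the 8 dentate granule cell genes, at r = -0.37 and 0.49 (permutation p = 0.0696 and 0.0818, adjusted p = 0.47 and 0.51). Without WTEE sample 10 the coefficient of Pdyn was 0.78 (adjusted permutation p = 0.00972). The 10 striatal projection neuron genes, a cell type that makes much Penk, Pdyn and Tac1, summed to 164 to 228 CPM and were measured in every group. Against them Tac1 had r = 0.59 (permutation p = 0.0104, adjusted p = 0.211) and Penk r = 0.45 (adjusted p = 0.47). The 7 interneuron genes summed to 614 to 837 CPM and the 9 genes of thalamus and habenula to 74.0 to 98.6 CPM. The 3 tested of 8 hypothalamic genes summed to 3.09 to 9.25 CPM, while the 10 choroid plexus genes ran from 27.7 to 9926 CPM, highest in KDEE sample 12.

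**Figure D5:**
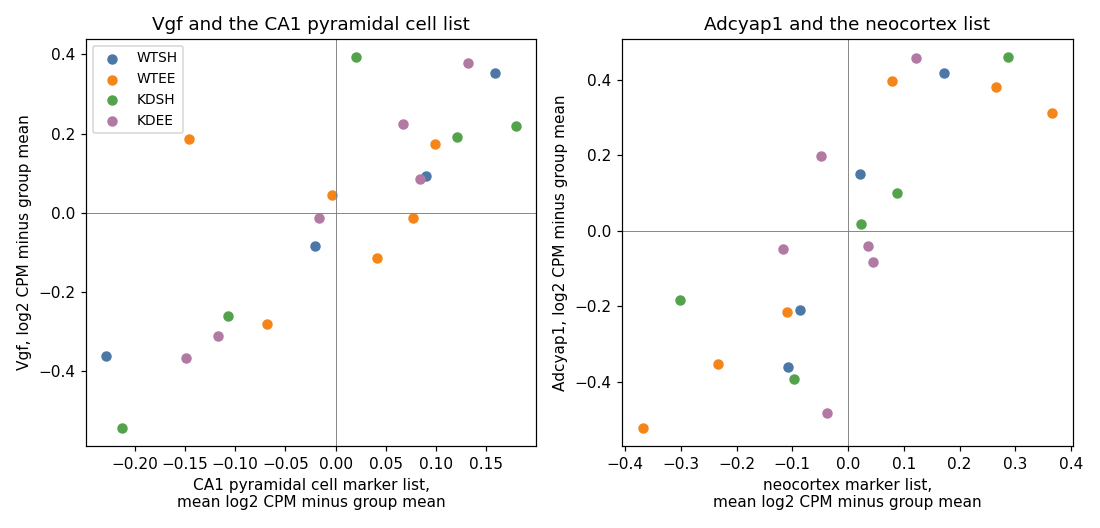
Deviation from the group mean of Vgf against that of the CA1 pyramidal cell list (left) and of Adcyap1 against the neocortex list (right), in log2 CPM, 1 point for each of 21 libraries coloured by group. Both rise together across the groups, with r = 0.80 and r = 0.81.

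By the correlation of deviations over 21 libraries among 15098 genes, those most alike to Vgf were Grik5 (r = 0.95), a kainate receptor subunit, Dlgap3 (0.95), a postsynaptic scaffold, and Fscn1 (0.93), an actin bundler. For Penk they were Rnmtl1 (0.93), Taf11 (0.90) and Exosc7 (0.90), and for Cartpt Gtf2h4 (0.94), Ydjc (0.92) and Rnmtl1 (0.91). Without WTEE sample 10 the 3 coefficients of Vgf stayed at 0.95, 0.95 and 0.94, those of Penk were 0.82, 0.74 and 0.77 and those of Cartpt 0.88, 0.85 and 0.81. For Pdyn the genes were Cenpp (0.80), Nefl (0.78) and Chn1 (0.77), and for Scg2 2810402E24Rik (0.79), Tpgs2 (0.77) and Nefl (0.76). The remaining lists were Tomm40 (0.88), Dctpp1 (0.88) and Shisa4 (0.88) for Tac1, Tmem35a (0.89), Syt5 (0.89) and Rab33a (0.88) for Tac2, Aldh3a1 (0.88), Zfp422 (0.88) and Slc52a3 (0.84) for Crh, and Kif16b (0.83), Rassf3 (0.78) and Dpp4 (0.76) for Adcyap1. Without WTEE sample 10 the coefficients of Tac2 fell to 0.73, 0.72 and 0.70, those of Tac1 were 0.79, 0.79 and 0.80, and those of Crh 0.85, 0.84 and 0.76. Ranking by rho in place of r kept only 9 of these 27 places.

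The receptors and partners of these peptides were read from lists of the opioid (6 genes), tachykinin (4), CRH (6), PACAP (4) and granin and peptide processing (9) systems and of activity-regulated CREB targets (10). Of these, 0 genes were called by edgeR in any of the 7 comparisons, and Tac4, Ucn, Ucn2 and Ucn3 were too low to be tested. The median log2 fold change of a list lay between -0.30 and 0.24 over the comparisons. That of all genes stayed between -0.0012 and 0.0071. A list had only 3 to 10 tested genes, so its median can stray further from 0 than that of all genes. The -0.30, for WTEE minus WTSH, was the value of Tacr2, the middle of 3 tested tachykinin genes, at 0.32 CPM on average. In that comparison the median absolute log2 fold change of all genes was 0.12. Tacr3, the receptor of neurokinin B, had 3.58 ± 0.36 CPM in WTSH (SD, n = 4) and 2.70 ± 0.62 in WTEE (n = 6), a difference of -0.41 ± 0.148 (SE, edgeR adjusted p = 0.651), and 3.64 and 3.46 CPM in KDSH and KDEE. Bdnf, a neurotrophin gene of the CREB target list, differed by -0.15 ± 0.056 for MSK1 KD minus WT over both housings (unadjusted p = 0.0126, edgeR adjusted p = 0.9996). In that comparison 2 of the 10 genes of its list had an unadjusted p under 0.05, beside 1.9% of all genes. Fosb, an immediate early gene, differed by -0.32 ± 0.126 for enriched minus standard (edgeR adjusted p = 0.232).

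Other genes with the lowest unadjusted p of their list also missed the adjusted threshold. These were Oprl1, the nociceptin receptor (-0.14 for KDEE minus KDSH), Crhr2 (0.58, same comparison), and Scg3 (0.12, same comparison). Over both genotypes they were Tacr2 (-0.45), Crhbp, which binds and holds back CRH (0.13), Vipr1 (-0.22), Adcyap1r1, the PACAP receptor (-0.11), and Scg5, a chaperone of the convertase PC2 (0.15). Of these, Crhr2 was highest in KDEE sample 12, the library highest in choroid plexus genes, at 9.11 CPM beside a median of 2.91. Scg5 was highest in WTEE sample 10, at 222 CPM beside a median of 143. The part of single libraries in these differences was not tested. Pomc, the third opioid precursor gene and a pituitary hormone gene, differed by -3.95 ± 1.015 for KDEE minus KDSH (edgeR adjusted p = 0.338), and 95.7 CPM of it lay in 1 library, KDSH sample 8. That library also had the highest summed level of the 4 tested genes of the 8 in the pituitary list, 148 CPM beside a median of 1.54 over the 21 libraries. Gh, its growth hormone gene, was at 128 CPM there and Prl, the prolactin gene, at 17.3 CPM. The same library was the highest of KDSH for 7 of 9 members, Penk, Tac1, Tac2, Crh, Scg2, Vgf and Cartpt, and the part of pituitary RNA in this was not tested.

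The 3 left-out libraries were scaled with all 24. WTSH sample 4 had the lowest values of Tac2 (2.44 CPM) and Cartpt (0.90 CPM, from 11 counts) of any library, and WTSH sample 7 the lowest of Adcyap1 (3.70 CPM). For Penk both lay above the 4 kept WTSH mice, at 22.5 and 28.2 CPM against 20.3 to 21.96 on the same scale, so the closeness of the WTSH group for Penk belongs to the kept libraries. KDSH sample 6 had 292 CPM of Vgf, above the highest kept library (282 CPM), and lay within or above its group for all 9 members.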

How the data were processed

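Poly(A) RNA of single hippocampi was sequenced in 24 libraries, 1 per mouse. The authors trimmed the read pairs, aligned them to GRCm38 with STAR 2.5, counted unique alignments per gene symbol with HTSeq 0.6.1p1 without regard to strand and deposited the raw counts. Groups were taken from the titles and labels of the samples. The members and lists were chosen with earlier results of these data known.

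A model with the 4 groups was fitted to the 21 kept libraries in R 4.3.3 with edgeR 4.0.16 (TMM factors, filterByExpr, quasi-likelihood test). Called genes had a p under 0.05 after Benjamini-Hochberg adjustment and a log2 fold change beyond 0.38 in either direction, as in the study. The Wald test of DESeq2 1.42.0 was the first alternative. Levels are TMM-normalized CPM, divided by the merged length of all exons in GENCODE M21 where genes are ranked, which can exceed the length of the transcript made. Single members were compared with exact two-sided permutation tests on log2 CPM with a prior count of 2, and correlations used 100000 permutations within groups, of which 1e-05 is the smallest possible p. P values set a difference against the spread between mice of a group and take the mice as independent. Housing was given by the cage with several mice in each, and the labels do not name the cage. Cage and housing therefore cannot be told apart. The kept libraries held 27410239 to 71907130 counts, which are not molecules, since reads carry no molecular identifiers. The 95% intervals come from the edgeR fit and include the spread between mice. Symbols matched exactly 1 gene of the annotation for 95.23% of rows, and all 9 members matched. HTSeq assigned no gene to 8.41 to 15.71% of the read pairs of the kept libraries and found 4.14 to 6.57% ambiguous between genes. Both kinds were left out.

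By a fixed rule the text names the 9 members, Rps6ka5, the genes of each pathway list that were called or had the 2 smallest unadjusted p, the 3 genes most like each member and marker genes of lists with a summed level, of which those given singly were chosen after their values were seen. Tested on simulated counts, edgeR recovered 199 of 200 genes changed by a log2 fold change of 1 in WTEE minus WTSH with 12 false calls among 19927 genes. The changed genes were well counted, every gene had the same simulated spread, and no library stood apart. This recovery therefore does not measure the power for the smaller differences of the members. Alternatives were other size factors, other filters, all 24 libraries, only the groups compared, a robust fit, no fold threshold, normalized counts in exact tests, correlations without subtracting group means or by rho, and leaving out each library. For exact tests and correlations, leaving out libraries was chosen after seeing the data. Promoter sequences were taken from RefSeq (GRCm38.p6). Figures were drawn with matplotlib 3.10.9.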

Additional observations from a re-analysis of the deposited data

Results flagged for a closer look

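In groups of 4 to 10 mice, a library was picked out where its gap to the nearest other mouse was large for the range of its group by Dixon's 95% criterion. With 36 combinations of member and group tested, chance picks out about 1 in 20, and 7 were found. In 4 of them the library was WTEE sample 10, with 40.7 CPM of Penk (next highest of its group 24.7), 14.03 CPM of Tac1 (9.75), 7.86 CPM of Tac2 (4.48) and 3.85 CPM of Cartpt (1.96). This is the library in which genes with short exons were high and Rps6ka5 was low, and Scg2 and Vgf were not apart from the group in it. Scg2 was high in WTSH sample 5 at 187 CPM (next 172 CPM) and in KDEE sample 15 at 182 CPM (next 166 CPM), gaps that are small beside its level. Crh was low in KDEE sample 20 at 1.39 CPM, where the next lowest mouse of the group had 2.18 CPM.

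Outside the 21 libraries compared, KDSH sample 6 held 292 CPM of Vgf on the scale of all 24 libraries, above the highest kept library at 282 CPM.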

How the results depend on the processing

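For the members, 0 of the 9 were called in 200 combinations of a comparison and an alternative setting. A comparison of 2 groups had 29 such settings, of which 21 left out 1 library and only 1 was DESeq2. The smallest adjusted p of a member was 0.246 (edgeR, Pdyn, WTEE minus WTSH, all 24 libraries). Of 63 fitted member differences 40 changed sign under at least 1 alternative, none of them over 0.201 in absolute log2 fold change, and 23 kept their sign. With all 24 libraries Adcyap1 turned to 0.096 for WTEE minus WTSH, 0.11 for KDSH minus WTSH and 0.055 for enriched minus standard. On leaving out 1 library Adcyap1 ran from -0.17 to 0.10, -0.18 to 0.11 and -0.070 to 0.065 in these 3 comparisons and from -0.11 to 0.076 for WTEE minus KDEE, and Pdyn from -0.076 to 0.042 for KDEE minus KDSH. Cartpt ran from -0.068 to 0.24 for WTEE minus WTSH and from -0.041 to 0.34 for WTEE minus KDEE, and Tac1 from -0.048 to 0.15 for WTEE minus KDEE, and these 3 were below 0 only without WTEE sample 10. The cause was not tested. Over all genes, edgeR called 0 for WTEE minus WTSH, KDEE minus KDSH, WTEE minus KDEE and the interaction and 1 for enriched minus standard. DESeq2 called 2, 14, 118, 20 and 41. With all 24 libraries edgeR called 1 for WTEE minus WTSH and 15 for enriched minus standard, and with only the groups compared 1 for KDEE minus KDSH. On leaving out 1 library these counts ran from 0 to 1 for WTEE minus WTSH (1 without WTEE sample 13) and from 0 to 6 for enriched minus standard (0 without WTSH sample 5 or 19, 2 without KDSH sample 18 or KDEE sample 20, 6 without WTEE sample 21). Members past an exact p of 0.05 ran from 0 to 1 for KDSH minus WTSH and for WTEE minus KDEE. Pairs of members past the adjusted threshold numbered 9 with all 24 libraries and 7 without subtracting group means, and 0 (without WTEE sample 10) to 7 on leaving out 1 library, with 4 without KDEE sample 15. Relations with marker lists ran from 1 (without KDSH sample 18 or WTSH sample 19) to 3 (without WTEE sample 10, 13 or 21). No paired analysis was possible because the mice are numbered through the series and no number is shared between groups. With 4 to 6 mice a group, the 95% intervals of 7 of 9 members reached past the fold threshold for WTEE minus WTSH, and Crh and Cartpt rest on few counts.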
